A study of Homo sapiens with 18 samples.

Results

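The genes described here were 39 genes of homologous recombination, of the Fanconi pathway of crosslink repair and of the checkpoint kinases that act with them. They were chosen by name, but with earlier results of these data known. All 39 were found among the 60676 Ensembl genes of the table. RNA was sequenced from 3 established lines of triple-negative breast cancer, namely MDA-MB-231, MDA-MB-468 and BT20. Each line had 3 libraries of cells given 20 mM nicotinamide (NAM), an amide form of vitamin B3, for 48 h and 3 libraries of untreated control cells, 18 libraries in all. By the labels the control RNA may have been collected before the treatment began, in which case NAM against control also spans 48 h of culture. RPMI was the medium of BT20 and DMEM that of MDA-MB-231 and MDA-MB-468, so that differences involving BT20 cannot be told apart from those of the medium. Each line is a single established line, and the labels do not say whether the 3 libraries of a group came from separate cultures, so the p-values measure the spread between libraries, which may be technical.

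In homologous recombination a broken DNA end is resected, a protein filament is built on the single strand with the help of BRCA2 and its partners, and the filament copies the missing sequence from the sister chromatid. In the Fanconi pathway a core complex of FANC proteins and the E2 enzyme UBE2T attach ubiquitin to the FANCI-FANCD2 pair at a stalled fork, and recombination completes the repair. The kinases ATM and ATR, with CHEK2 and CHEK1 below them, hold the cell cycle while this happens. Breast cancers that lack BRCA1, BRCA2 or their partners depend on other repair routes, which is why these genes are followed in triple-negative disease. Many of the genes are transcribed mainly in S and G2 phase.

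Values are given as FPKM, read counts divided by gene length and by library depth, as deposited. Recovered depth, which matched the count of protein-coding reads, ran between 10864143 and 21755168 reads per library, with a median of 16640628. Changes are log2 differences of quantile-normalized log2(FPKM + 1), which understates the change of low genes, and a gene was called at a Benjamini-Hochberg adjusted p under 0.05 over all genes tested by limma. A gene was tested where at least 3 libraries of the comparison had an FPKM of 1 or more. Means and library values were not quantile-normalized. RAD50, RAD54B and RAD51B did not reach that level in enough libraries of any comparison. Across the 18 libraries RAD50, the ATPase of the MRE11 complex, had 0.0479 to 0.819 FPKM, the RAD54 paralog RAD54B 0.0346 to 0.746 FPKM and the filament mediator RAD51B 0.539 to 1.27 FPKM. In the GENCODE v44 annotation another gene on the same strand covered 76.9% of the exon bases of RAD50 and FSBP covered 66.0% of those of RAD54B. Counting by gene may lose reads that fall in shared exons, and whether that set these low values was not tested. KLC1, on the opposite strand, covered most of XRCC3, with 76.7% of its exon bases shared, and LRRC41 and ZNF276 overlapped RAD54L and FANCA by 19.9% and 19.6%. The library kit marked strand by its label, but the strand setting of the counting is not given in the sources used here, so the values of these genes are uncertain by the reads of their partners.

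Libraries of a group differed from each other across many members at once. NAM replicate 2 was the highest of its group for 30 of the 39 genes in BT20 and for 28 in MDA-MB-231. Control replicate 1 was the highest for 30 genes in MDA-MB-468, and NAM replicate 1 was the lowest for 32 genes in MDA-MB-231. BRCA1, for example, had 1.47, 8.49 and 5.02 FPKM in the NAM libraries of MDA-MB-231, against 3.57, 4.95 and 4.40 FPKM in its controls. In MDA-MB-231 and in MDA-MB-468 replicate 1 of NAM and replicate 1 of control deviated together. Replicates 2 and 3 were not clearly told apart in this way. For these lines the fit with the replicate number as a block is given beside the plain fit. All 8 epithelial markers were at 16.0 FPKM or more in every BT20 and MDA-MB-468 library. In MDA-MB-231 GRHL2, CDH1 and ESRP1 were at most 0.466 FPKM and EPCAM had 2.76 to 3.67 FPKM, while KRT8, KRT18, KRT19 and CLDN4 had 30.4 to 189 FPKM. Of the mesenchymal markers VIM had 189 to 285 FPKM in MDA-MB-231 and at most 4.48 FPKM in the other lines, but FN1 reached 26.9 FPKM in MDA-MB-468, against 10.3 FPKM in MDA-MB-231, and TWIST1 was above 0 only in MDA-MB-468. PGR was at 0 in all libraries, ESR1 was at most 1.87 FPKM and ERBB2 had 8.70 to 31.7 FPKM. Of 12 markers of blood, vessel and fibroblast cells, the blood genes PTPRC and CD3E were at most 0.0357 FPKM, whereas CDH5 had 4.01 to 23.6 FPKM in BT20, COL1A1 reached 3.51 FPKM, ACTA2 2.07 FPKM and VWF 1.15 FPKM, and no other marker passed 0.719 FPKM.

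The promoters of 4 members are shown, chosen among those that were lower with NAM in the most lines, as described further on. With the plain fit in BT20 and the replicate block in the other lines, RAD54L was lower in all 3 lines. PIF1, RAD51AP1, FANCD2 and RMI2 were lower in 2 lines each. By the plain limma fit no member was called in MDA-MB-468 or MDA-MB-231. RMI2 is not shown because its mean adjusted p over its 2 lines, 0.042, was the highest of the tie (limma). The sequences are the 250 bases before the RefSeq transcription start on build GRCh38.p14, read 5′ to 3′ on the gene's strand, and 35 of the 39 genes had an entry. Capitals mark the CCAAT box (CCAAT, or ATTGG on the other strand) and the CHR element (TTTGAA or TTCAAA), both known from promoters of cell cycle genes. RAD54L, from the plus strand at chr1:46247438-46247687, encodes a motor protein that helps the filament pair DNA strands. RefSeq lists 2 starts for RAD54L, of which the most upstream is shown. PIF1, from the minus strand at chr15:64825648-64825897, encodes a helicase that unwinds structured DNA at forks. RAD51AP1, from the plus strand at chr12:4538640-4538889, encodes a cofactor of strand pairing. FANCD2, from the plus strand at chr3:10026187-10026436, encodes the Fanconi protein that receives ubiquitin.
RAD54L: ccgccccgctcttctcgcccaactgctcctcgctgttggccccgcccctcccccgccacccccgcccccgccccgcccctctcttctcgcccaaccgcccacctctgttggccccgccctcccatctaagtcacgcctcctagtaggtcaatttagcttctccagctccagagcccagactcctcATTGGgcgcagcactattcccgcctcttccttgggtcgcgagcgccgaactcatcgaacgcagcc
PIF1: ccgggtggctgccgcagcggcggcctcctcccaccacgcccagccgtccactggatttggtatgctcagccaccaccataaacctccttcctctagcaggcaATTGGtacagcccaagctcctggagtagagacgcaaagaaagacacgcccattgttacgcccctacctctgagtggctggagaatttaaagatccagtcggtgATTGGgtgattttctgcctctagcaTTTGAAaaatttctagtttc
RAD51AP1: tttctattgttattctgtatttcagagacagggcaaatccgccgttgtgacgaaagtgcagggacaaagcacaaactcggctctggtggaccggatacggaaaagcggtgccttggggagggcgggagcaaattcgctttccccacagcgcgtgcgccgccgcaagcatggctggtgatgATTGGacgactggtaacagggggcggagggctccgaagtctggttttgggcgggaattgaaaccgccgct
FANCD2: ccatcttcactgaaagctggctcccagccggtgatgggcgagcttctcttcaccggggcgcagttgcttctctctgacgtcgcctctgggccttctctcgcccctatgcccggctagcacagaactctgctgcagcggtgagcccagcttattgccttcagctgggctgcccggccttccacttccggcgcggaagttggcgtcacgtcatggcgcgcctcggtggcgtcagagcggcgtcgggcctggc

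The PIF1 sequence held a CHR element starting 20 bases before the start and CCAAT boxes 45 and 148 bases before it. RAD54L and RAD51AP1 each held 1 CCAAT box, 65 and 70 bases before the start. None of the 3 motifs searched was in the FANCD2 sequence, the third motif being the E2F site in the forms TTTCCCGC, TTTCGCGC, TTTGCCGC and TTTGGCGC. On both strands of all 35116 RefSeq windows of the same length, 32.01% held a CCAAT box, 13.32% a CHR element and 2.79% an E2F site. Of the 35 member genes with an entry, 18 held a CCAAT box, 5 a CHR element and 3 an E2F site in at least 1 of their windows. Counts of genes and shares of windows are unlike measures, since a gene may have more than 1 window. These matches are letters in a window and not evidence of binding.

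BT20 was compared first, to see how the repair genes stood in this line after NAM. Of the 36 members tested, 13 fell and 0 rose, against 8.51% of all 14965 genes tested that fell and 8.16% that rose. The limma-voom fit on recovered reads also called 13 lower and 0 higher, and at an unadjusted p under 0.05 the plain limma fit gave 17 lower and 0 higher. The median log2 change was -0.42 over the members and 0.02 over all genes tested. The 13 genes came from 8 of the 9 roles, the checkpoint kinases being the exception.

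The steepest fall was in PIF1. PIF1 had 0.873, 1.71 and 1.12 FPKM in NAM-treated BT20 cells, against 6.36, 8.64 and 7.57 FPKM in control cells, a log2 change of -1.96 (SE 0.19, adjusted p = 0.00151, limma). Every NAM library was thus below every control library by a wide margin. Of the strand pairing factors, RAD54L had 3.33, 4.52 and 1.94 FPKM with NAM, against 9.68, 9.02 and 9.87 FPKM in the controls (-1.38, SE 0.24, adjusted p = 0.00823, limma). RAD51AP1 had 6.50, 12.7 and 4.24 FPKM with NAM, against 16.4, 21.3 and 17.1 FPKM in the controls (-1.25, SE 0.32, adjusted p = 0.0302, limma). NAM replicate 2 was the nearest to the controls for all 3 genes.

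Of the 9 tested genes of the Fanconi core complex and its E2 enzyme 3 fell, namely FANCG, FANCA and FANCE. FANCG had 6.47, 6.32 and 4.18 FPKM with NAM, against 13.3, 14.3 and 15.2 FPKM in the BT20 controls (-1.25, SE 0.19, adjusted p = 0.00607, limma). FANCA, which binds FANCG inside the complex, had 4.55, 3.93 and 3.59 FPKM with NAM, against 7.22, 9.79 and 10.0 FPKM in the controls (-1.02, SE 0.17, adjusted p = 0.00766, limma). FANCE, which bridges the complex to FANCD2, had 8.60, 6.67 and 5.76 FPKM with NAM, against 10.6, 12.2 and 10.8 FPKM in the controls (-0.64, SE 0.18, adjusted p = 0.0399, limma). The catalytic subunit FANCL (0.11), FANCF (0.26), FANCB (-0.42), FANCC (-0.34), FANCM (-0.27) and UBE2T (-0.42) did not pass. The substrates fell as a pair. FANCD2 had 5.28, 9.43 and 4.28 FPKM with NAM, against 10.2, 11.5 and 12.2 FPKM in the controls (-0.85, SE 0.25, adjusted p = 0.0498, limma), and its value lay close to the threshold. FANCI had 12.0, 20.3 and 12.2 FPKM with NAM, against 24.7, 24.6 and 25.8 FPKM in the controls (-0.74, SE 0.21, adjusted p = 0.0444, limma).

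Other called members in BT20 were spread over the pathway. EXO1, a nuclease of long-range resection, had 8.03, 13.1 and 5.83 FPKM with NAM, against 17.5, 18.7 and 18.7 FPKM in the controls (-1.03, SE 0.26, adjusted p = 0.0282, limma). It was the only one of the 4 tested resection genes to be called, and RBBP8 (0.30), NBN (0.27) and MRE11 (-0.19) did not pass. BRIP1, the BRCA1-bound helicase, had 0.853, 1.66 and 0.771 FPKM with NAM, against 1.89, 2.54 and 2.67 FPKM in the controls (-0.71, SE 0.20, adjusted p = 0.0407, limma). XRCC2, a filament mediator, had 3.17, 3.92 and 2.72 FPKM with NAM, against 4.45, 6.09 and 5.78 FPKM in the controls (-0.64, SE 0.18, adjusted p = 0.0413, limma). The genes of the complex that dissolves double Holliday junctions were also among them. The helicase BLM had 1.19, 2.0 and 1.27 FPKM with NAM, against 2.37, 2.79 and 2.90 FPKM in the controls (-0.61, SE 0.18, adjusted p = 0.0451, limma). Its partner RMI2 had 4.90, 6.0 and 2.91 FPKM with NAM, against 10.2, 8.34 and 7.11 FPKM in the controls (-0.84, SE 0.25, adjusted p = 0.0483, limma).

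BRCA1 (-0.36), BRCA2 (-0.27) and PALB2 (0.03) did not pass in BT20, nor did BARD1, the partner of BRCA1, at -0.62 with an adjusted p of 0.067 by limma. The filament mediators XRCC3 (-0.58), RAD51C (0.20) and RAD51D (-0.02), the nuclease subunits EME1 (-0.50) and MUS81 (0.03) and RMI1 (-0.41) also did not pass. The kinases had changes of 0.38 for ATM, 0.11 for ATR, -0.51 for CHEK1 and -0.33 for CHEK2, with none called. Of the 13 calls PIF1, RAD54L, FANCG and FANCA were kept whichever library was left out. The count was 4 without control replicate 1, 2 or 3 or without NAM replicate 3, 7 without NAM replicate 1, of which RBBP8 was higher, and 19 without NAM replicate 2. It was also 4 without the filter on low values.

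**Figure D1:**
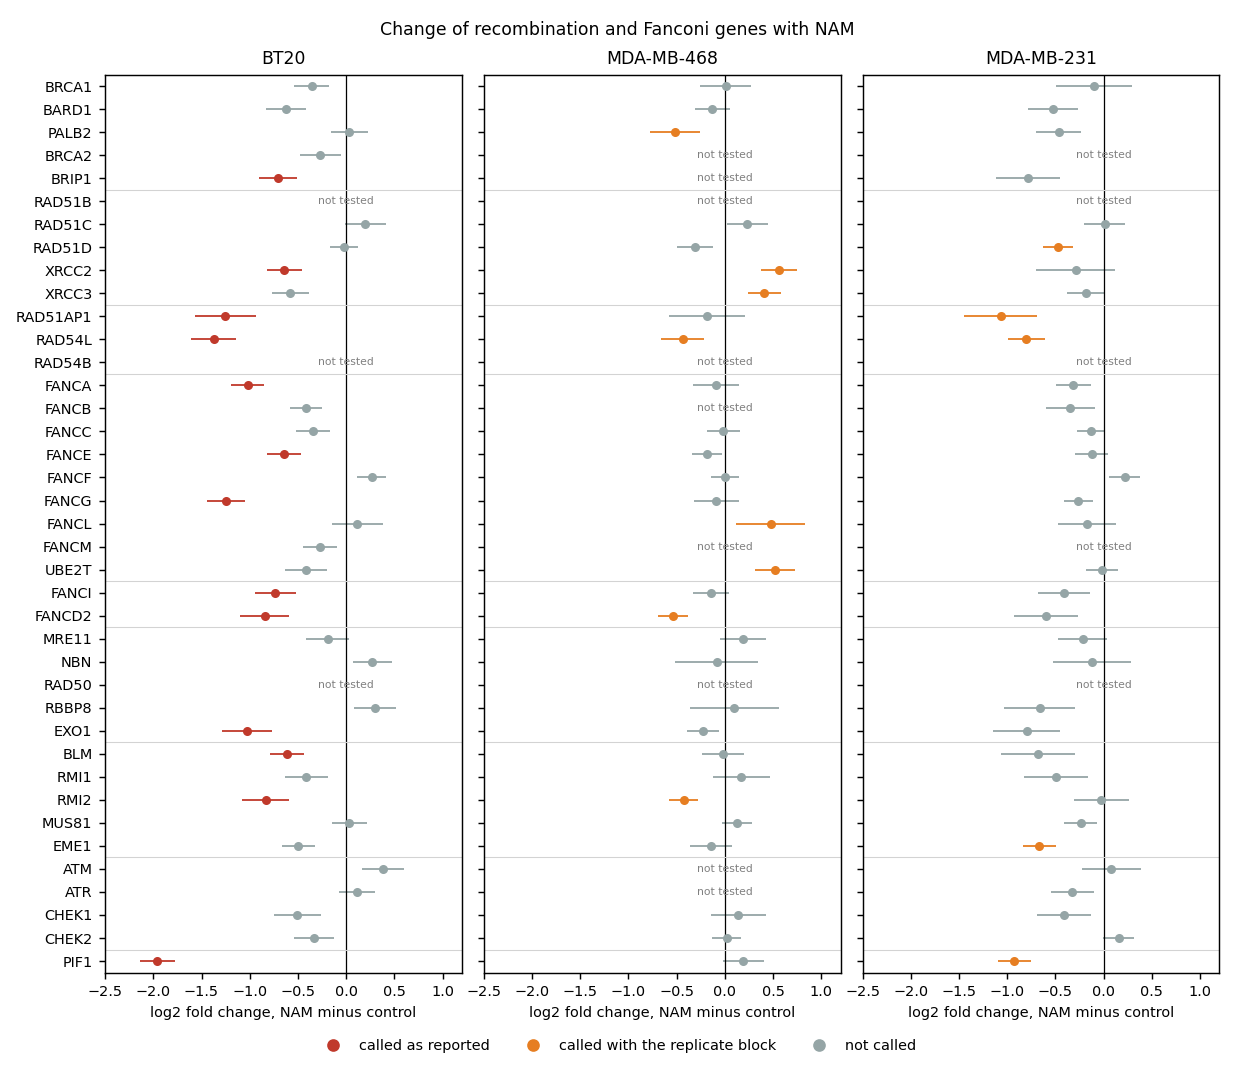
Log2 fold change of each member, NAM minus control, with its SE from limma, in each of the 3 lines (rows are genes in order of role, horizontal axis on the log2 scale). The 13 genes called in BT20 all lie left of 0, and the calls of the replicate block lie on both sides in MDA-MB-468 and left of 0 in MDA-MB-231.

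Genes of S phase and of G2 and mitosis moved with the members in BT20. Of 20 S phase genes 12 fell and 0 rose, with a median of -0.998, and of 20 G2 and mitosis genes 13 fell and 0 rose, with a median of -1.02. RRM2, a subunit of ribonucleotide reductase, changed by -1.90 (SE 0.39, adjusted p = 0.0148, limma) and PLK1, a mitotic kinase, by -1.75 (SE 0.33, adjusted p = 0.0112, limma). The summed level of the S phase list was 332 to 560.0 FPKM with NAM, against 797 to 826 FPKM in the controls, and that of the G2 and mitosis list 449 to 812 FPKM, against 1145 to 1172 FPKM. The summed level of the 39 members was 189 to 288 FPKM with NAM, against 312 to 327 FPKM in the controls. NAM replicate 2 had the highest sum of its group in all 3 lists, and the part of these lists in the members' fall was not tested. The summed level of the 12 markers of other cell types also moved, with 6.47 to 11 FPKM with NAM, against 16.7 to 27.6 FPKM in the controls, mostly through the vessel gene CDH5 (-1.47, SE 0.30, adjusted p = 0.0153, limma), while CD3E was at 0. In bulk RNA fewer cells in a phase and less RNA per cell cannot be told apart.

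**Figure D2:**
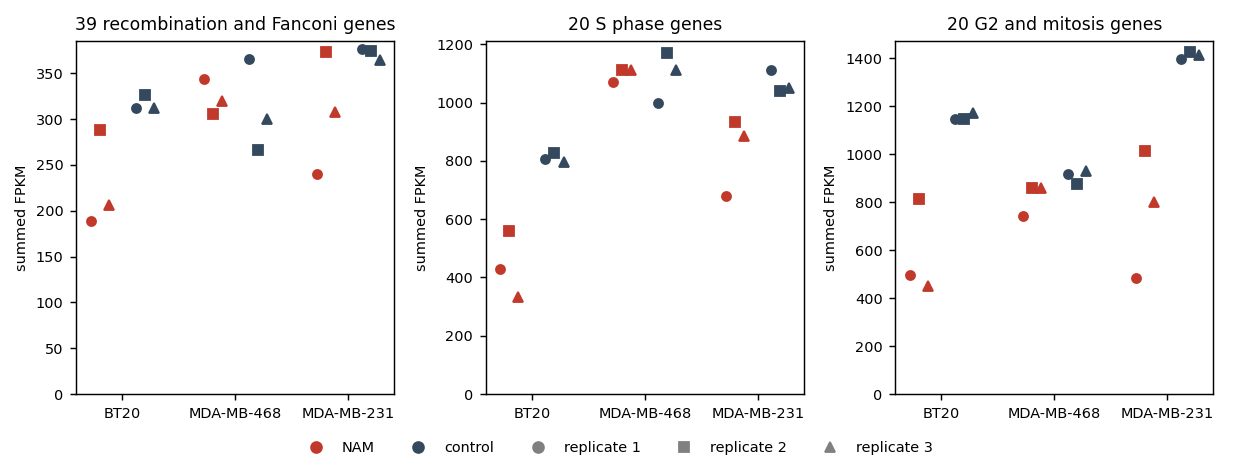
Summed FPKM of the 39 members, of 20 S phase genes and of 20 G2 and mitosis genes in every library, by line, with NAM left of control and a marker shape for each replicate number. In BT20 the NAM libraries lie below the control libraries in all 3 panels, with NAM replicate 2 nearest to them.

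The neighbouring pathways in BT20 had fewer calls. Of 36 tested other recombination and Fanconi genes, 5 fell and 4 rose, with a median of -0.22. FAAP24 (-1.09), FAAP100 (-0.95), both subunits of the core complex, and HROB (-0.90), which brings a helicase to recombination sites, were among those that fell. ZSWIM7 (0.61), ERCC4 (0.59), SWI5 (0.57) and FAN1 (0.57) rose, of which SWI5 encodes a recombination cofactor and FAN1 a crosslink nuclease. Of 18 tested genes of end joining and the 53BP1 pathway only POLQ, the polymerase of microhomology joining, was called (-0.74, adjusted p = 0.0289, limma). Of 20 checkpoint mediators 4 fell, namely H2AX (-1.09), CDC25A (-0.86), WEE1 (-0.85) and TIMELESS (-0.73), and 0 rose.

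In MDA-MB-468 the plain limma fit called 0 of the 30 members tested, with 3 higher and 2 lower at an unadjusted p under 0.05 and 0 by limma-voom, against 3.56% of all genes higher and 5.43% lower. The median member change was -0.02, and 0.02 over all genes tested. With the replicate block, 4 of the 30 members passed higher and 4 lower, against 15.4% and 14.3% of all genes. The members were thus not called more often than genes in general. BRCA2, BRIP1, FANCB, FANCM, ATM and ATR were under the filter here besides the 3 genes named above.

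Higher in MDA-MB-468 with the block were 2 filament mediators and 2 genes of the ubiquitin step. XRCC2 had 5.52, 4.11 and 4.12 FPKM with NAM, against 3.83, 1.89 and 2.41 FPKM in the controls (0.56, SE 0.11 and adjusted p = 0.0116 with the block, 0.107 without it, limma). XRCC3, a further mediator, had 3.52, 4.59 and 4.59 FPKM with NAM, against 2.88, 2.65 and 2.83 FPKM in the controls (0.41, SE 0.12, adjusted p = 0.0396 with the block, 0.19 without it, limma). In both genes the groups did not overlap. UBE2T had 65.0, 48.3 and 55.7 FPKM with NAM, against 47.7, 32.9 and 37.4 FPKM in the controls (0.52, SE 0.10, adjusted p = 0.0111 with the block, 0.167 without it, limma), again without overlap. FANCL, the ligase that works with it, had 29.8, 14.9 and 19.1 FPKM with NAM, against 24.2, 9.26 and 12.8 FPKM in the controls (0.47, SE 0.11, adjusted p = 0.0184 with the block, 0.48 without it, limma), and its groups overlapped since replicate 1 was high in both.

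Lower in MDA-MB-468 with the block were FANCD2, PALB2, RAD54L and RMI2. FANCD2 had 3.80, 2.98 and 3.22 FPKM with NAM, against 4.95, 4.44 and 6.05 FPKM in the controls (-0.54, SE 0.12, adjusted p = 0.0168 with the block, 0.0693 without it, limma). PALB2, the bridge between BRCA1 and BRCA2, had 3.69, 1.69 and 1.84 FPKM with NAM, against 5.55, 2.56 and 2.92 FPKM in the controls (-0.52, SE 0.10, adjusted p = 0.0106 with the block, 0.269 without it, limma). In each replicate number the NAM library of PALB2 was below its control. RAD54L had 10.6, 18.3 and 15.3 FPKM with NAM, against 15.9, 21.9 and 21.5 FPKM in the controls (-0.44, SE 0.11, adjusted p = 0.027 with the block, 0.286 without it, limma). RMI2 had 6.27, 5.78 and 5.18 FPKM with NAM, against 8.76, 6.47 and 8.36 FPKM in the controls (-0.43, SE 0.12, adjusted p = 0.0357 with the block, 0.131 without it, limma). The groups of FANCD2 and RMI2 did not overlap, while those of RAD54L and PALB2 did. With the block 3 S phase genes rose and 7 fell of 20, and 1 G2 and mitosis gene rose and 4 fell of 20. Their summed levels were 1072 to 1112 FPKM with NAM, against 999 to 1170.0 FPKM in the controls, for S phase, and 741 to 859 FPKM, against 878 to 929 FPKM, for G2 and mitosis. The mesenchymal list had a summed level of 5.73 to 6.05 FPKM with NAM, against 23.6 to 28.0 FPKM in the controls, mostly through the matrix gene FN1 (-2.52, SE 0.15, adjusted p = 0.000127 without the block, limma). The part of these lists in the members' changes was not tested. Of 35 tested other recombination and Fanconi genes 1 rose with the block, ZSWIM7 (0.41), and 3 fell, FAAP100 (-0.62), BABAM2 (-0.46) and HROB (-0.34). TP53BP1 (-0.42) and LIG3 (-0.40) fell among 18 end joining genes, and of 20 checkpoint mediators HUS1 (0.71) and RPA3 (0.62) rose and 0 fell. Without the block HUS1, a subunit of the checkpoint clamp, was the only gene called in these 3 lists (adjusted p = 0.0395, limma). XRCC2 passed without the block when control replicate 1 was left out (adjusted p = 0.0359, limma).

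In MDA-MB-231 the plain limma fit called 0 of the 34 members tested, with 5 lower and 0 higher at an unadjusted p under 0.05 and 0 by limma-voom, against 0.829% of all genes higher and 1.09% lower. Of the tested members 30 had a negative change and 4 a positive one, with a median of -0.32, against -0.01 over all genes tested. With the block 5 members passed lower and 0 higher, against 11.4% of all genes lower and 12.6% higher. BRCA2 and FANCM were under the filter here besides the 3 genes named above.

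PIF1 had 1.68, 2.60 and 2.60 FPKM in NAM-treated MDA-MB-231 cells, against 5.52, 4.50 and 4.47 FPKM in control cells (-0.93, SE 0.14, adjusted p = 0.0157 with the block, 0.0522 without it, limma). RAD54L had 5.96, 10.0 and 10.7 FPKM with NAM, against 16.1, 14.0 and 16.9 FPKM in the controls (-0.80, SE 0.15, adjusted p = 0.0247 with the block, 0.0861 without it, limma). The NAM libraries were below every control library for both genes. RAD51AP1 had 2.63, 11.2 and 6.25 FPKM with NAM, against 9.92, 15.7 and 13.8 FPKM in the controls (-1.07, SE 0.20, adjusted p = 0.0233 with the block, 0.185 without it, limma), and its groups overlapped. EME1, the partner of the nuclease MUS81, had 15.5, 15.6 and 15.9 FPKM with NAM, against 31.6, 22.6 and 22.1 FPKM in the controls (-0.67, SE 0.12, adjusted p = 0.0236 with the block, 0.104 without it, limma). RAD51D, a filament mediator, had 0.847, 1.51 and 1.77 FPKM with NAM, against 1.62, 2.22 and 2.27 FPKM in the controls (-0.47, SE 0.10, adjusted p = 0.0313 with the block, 0.153 without it, limma). The groups of EME1 did not overlap and those of RAD51D did.

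Genes of the cell cycle were lower in MDA-MB-231 too. With the block 8 of 20 S phase genes and 12 of 20 G2 and mitosis genes fell and 0 rose in each list, with medians of -0.52 and -0.86. Their summed levels were 680 to 934 FPKM with NAM, against 1039 to 1113 FPKM in the controls, and 484 to 1013 FPKM, against 1397 to 1425 FPKM. Among other recombination genes 5 of 33 fell, RFWD3 (-0.79), BABAM2 (-0.67) and HROB (-0.58) among them, and ZSWIM7 (0.99) and SWI5 (0.70) rose with the block. XRCC5 (-0.81) and LIG3 (-0.57) fell among 17 end joining genes, CDC25A (-1.03) and WEE1 (-0.63) among 19 checkpoint mediators, and 0 rose in these lists. Without the block 0 genes of the 5 lists were called, with 7 S phase and 9 G2 and mitosis genes lower at an unadjusted p under 0.05. Whether these lists account for the members' values was not tested.

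**Figure D3:**
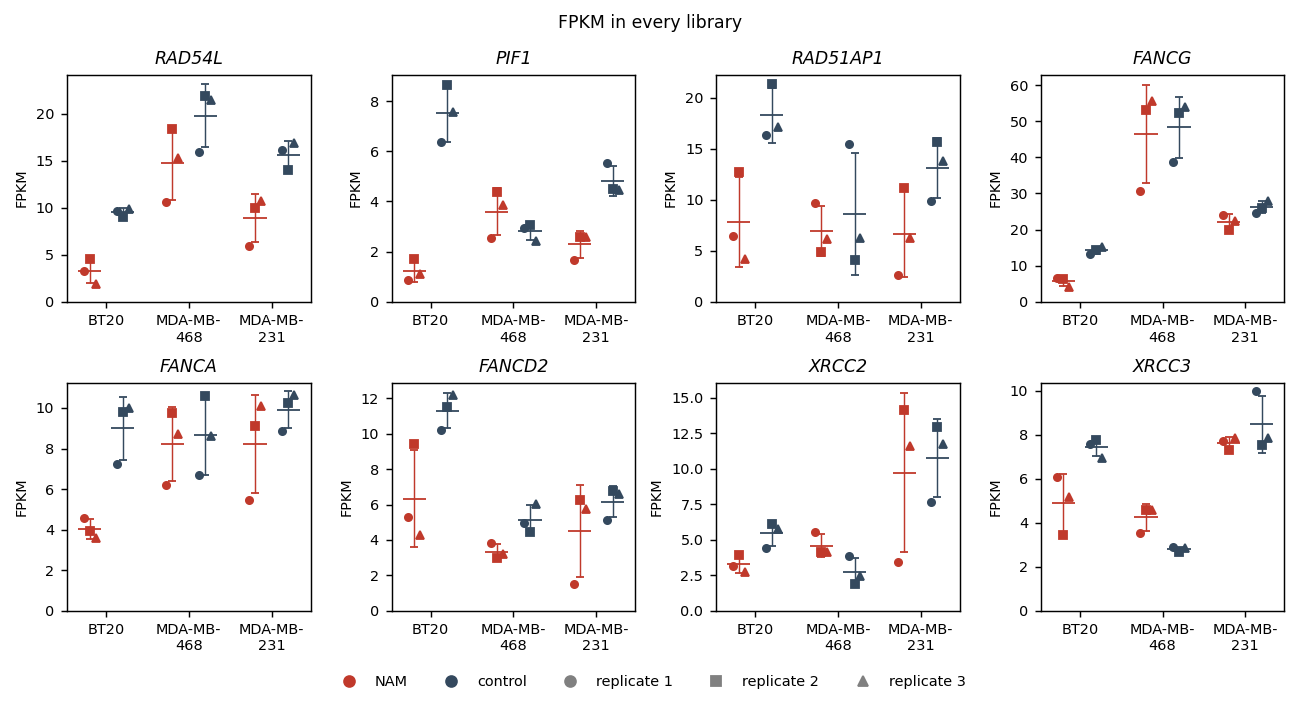
FPKM of 8 members in every library, by line, with NAM left of control, a marker shape for each replicate number, and the mean and SD of 3 libraries as bars. PIF1 lies at 0.873 to 1.71 FPKM with NAM in BT20, below all control libraries, and XRCC3 lies lower with NAM in BT20 and higher in MDA-MB-468.

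Taking BT20 as reported and the other lines with the block, RAD54L was lower in all 3 lines. PIF1 and RAD51AP1 were lower in BT20 and MDA-MB-231, and FANCD2 and RMI2 in BT20 and MDA-MB-468. Whether a change differed between lines was tested in 1 limma fit of all 18 libraries. Of 36 members tested PIF1, FANCG and XRCC3 had an interaction of line and treatment, against 9.36% of all 17784 genes tested. With the replicate block within line, which pairs nothing in BT20, 7 members passed, against 22% of all genes, the others being XRCC2, FANCA, UBE2T and RMI2.

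The change of PIF1 in MDA-MB-468 was 2.24 above that in BT20 (SE 0.28, adjusted p = 0.000129, limma), and that in MDA-MB-231 was 1.16 above it (SE 0.28, adjusted p = 0.0238, limma). PIF1 also changed differently in MDA-MB-231 than in MDA-MB-468 (-1.08, SE 0.28, adjusted p = 0.0353, limma), where it had 2.56, 4.37 and 3.84 FPKM with NAM, against 2.95, 3.05 and 2.43 FPKM in the controls. The change of FANCG was -0.09 in MDA-MB-468, against -1.25 in BT20, a signed difference of 1.22 (SE 0.29, adjusted p = 0.0192, limma). In MDA-MB-231 it was -0.26, a signed difference of 1.05 from BT20 (SE 0.29, adjusted p = 0.0453, limma). FANCG had 30.7, 53.1 and 55.5 FPKM with NAM, against 38.6, 52.3 and 53.9 FPKM in the MDA-MB-468 controls, groups that overlapped. The change of XRCC3 was 0.41 in MDA-MB-468, against -0.58 in BT20, a signed difference of 1.03 in the fit of all libraries (SE 0.25, adjusted p = 0.0245, limma). In BT20 XRCC3 had 6.07, 3.44 and 5.15 FPKM with NAM, against 7.60, 7.78 and 6.96 FPKM in the controls. The interaction of PIF1 was called with each library left out, while FANCG was lost without BT20 control replicate 2 or 3 or NAM replicate 3 and XRCC3 without most libraries, and 1 member, PIF1, was left under median scaling and under limma-voom.

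The untreated lines were compared next, to see where the repair genes stood before NAM. The 3 comparisons share control libraries and came from 1 limma fit of the 9 control libraries. In MDA-MB-468 against BT20, 5 of 36 tested members were higher and 15 lower, against 26.7% and 28.6% of all 16449 genes tested. The median over the members was -0.21, against -0.02 over all genes. Without MDA-MB-468 control replicate 2 or 3 the lower count was 9. In MDA-MB-231 against BT20, 13 were higher and 5 lower, against 30.4% and 28.6%, with medians of 0.22 and 0.05. This split was 9 and 9 without further normalization, which put the median of all genes at -0.13, 11 and 5 under median scaling and 10 and 8 by limma-voom, and no called member changed sign. The lower count was 2 without BT20 control replicate 2 or without MDA-MB-231 control replicate 2 or 3, and 3 without BT20 control replicate 3. In MDA-MB-231 against MDA-MB-468, 16 were higher and 2 lower, against 29.3% and 26.5%, with medians of 0.45 and 0.08.

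The largest difference of MDA-MB-468 against BT20 was FANCG, with 38.6, 52.3 and 53.9 FPKM in MDA-MB-468 controls, against 13.3, 14.3 and 15.2 FPKM in BT20 controls (1.69, SE 0.14, adjusted p = 1.04e-05, limma). RAD54L (1.01), FANCE (0.80), CHEK2 (0.77) and MUS81 (0.74) were also higher. XRCC3 had 2.88, 2.65 and 2.83 FPKM in MDA-MB-468, against 7.60, 7.78 and 6.96 FPKM in BT20 (-1.13, SE 0.14, adjusted p = 9.91e-05, limma). PIF1 had 2.95, 3.05 and 2.43 FPKM in MDA-MB-468, against 6.36, 8.64 and 7.57 FPKM in BT20 (-1.13, SE 0.16, adjusted p = 0.000239, limma). For all 3 genes the lines were far apart relative to their spread. MRE11, the nuclease that starts resection, had 4.18, 1.65 and 2.29 FPKM in MDA-MB-468, against 6.31, 6.84 and 6.97 FPKM in BT20 (-1.08, SE 0.19, adjusted p = 0.00119, limma). RAD51AP1 had 15.4, 4.14 and 6.24 FPKM in MDA-MB-468, against 16.4, 21.3 and 17.1 FPKM in BT20 (-1.15, SE 0.36, adjusted p = 0.0216, limma), and lost its call without BT20 control replicate 2 (adjusted p = 0.0711, limma) or MDA-MB-468 control replicate 2 or 3. FANCD2 (-0.998) and FANCI (-0.85), PALB2 (-0.66) and BRIP1 (-0.85), and XRCC2 (-0.77) and RAD51C (-0.65) were among the lower members.

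Among the genes that process junctions, EME1, BLM and MUS81 were higher in MDA-MB-231 than in BT20. EME1 had 31.6, 22.6 and 22.1 FPKM in MDA-MB-231 controls, against 11.1, 9.06 and 9.81 FPKM in BT20 controls (1.31, SE 0.18, adjusted p = 0.000164, limma). BLM had 4.98, 6.26 and 5.34 FPKM in MDA-MB-231, against 2.37, 2.79 and 2.90 FPKM in BT20 (1.06, SE 0.19, adjusted p = 0.000981, limma). MUS81 (0.98) and RMI1 (0.59) were higher as well. The call of RMI1 was lost without further normalization, by limma-voom, with a pseudocount of 0.1 and without the filter. It was also lost without any 1 of the BT20 controls and without MDA-MB-231 control replicate 2 or 3. RBBP8, which encodes the resection factor CtIP, had 16.7, 18.5 and 15.6 FPKM in MDA-MB-231, against 7.11, 7.26 and 6.22 FPKM in BT20 (1.30, SE 0.38, adjusted p = 0.0143, limma). FANCE had 21.4, 26.4 and 26.7 FPKM in MDA-MB-231, against 10.6, 12.2 and 10.8 FPKM in BT20 (1.15, SE 0.12, adjusted p = 3.96e-05, limma). XRCC2 had 7.68, 12.9 and 11.8 FPKM in MDA-MB-231, against 4.45, 6.09 and 5.78 FPKM in BT20 (1.01, SE 0.20, adjusted p = 0.00177, limma). The genes given with library values here were chosen among called members whose groups did not overlap. RBBP8 lost its call without BT20 control replicate 3 (adjusted p = 0.0503, limma). FANCL (-0.88), FANCF (-0.69), FANCD2 (-0.65), PALB2 (-0.50) and CHEK2 (-0.41) were lower. Of these only FANCF and FANCD2 kept their call under every alternative run. FANCL lost its call with a pseudocount of 0.1, without the filter, under median scaling and without any 1 of the BT20 controls, among others.

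Set against MDA-MB-468, MDA-MB-231 had the higher level for most called members. XRCC2 had 7.68, 12.9 and 11.8 FPKM in MDA-MB-231, against 3.83, 1.89 and 2.41 FPKM in MDA-MB-468 (1.78, SE 0.20, adjusted p = 5.13e-05, limma). XRCC3 had 9.97, 7.55 and 7.87 FPKM in MDA-MB-231, against 2.88, 2.65 and 2.83 FPKM in MDA-MB-468 (1.43, SE 0.14, adjusted p = 1.89e-05, limma). RAD51C (0.53) was called higher too, but not without further normalization, by limma-voom, without the filter or with most single libraries left out. EME1 had 31.6, 22.6 and 22.1 FPKM in MDA-MB-231, against 6.78, 9.10 and 8.68 FPKM in MDA-MB-468 (1.54, SE 0.18, adjusted p = 6.33e-05, limma). BRIP1 had 3.20, 3.59 and 2.95 FPKM in MDA-MB-231, against 1.25, 0.574 and 0.649 FPKM in MDA-MB-468 (1.49, SE 0.15, adjusted p = 2.82e-05, limma). FANCB, a core complex subunit encoded on the X chromosome, had 2.09, 2.71 and 2.55 FPKM in MDA-MB-231, against 1.16, 0.418 and 0.490 FPKM in MDA-MB-468 (1.33, SE 0.16, adjusted p = 7.51e-05, limma). The 5 genes given with library values were chosen among called members whose groups did not overlap, while the groups of RAD51C overlapped. CHEK2 (-1.18) and FANCG (-0.81) were the lower members. The G2 and mitosis list differed in the same comparison, with 14 of 20 genes higher and 1 lower in MDA-MB-231 and a median of 0.88, and the S phase list with 4 higher and 3 lower and a median of 0.08. In MDA-MB-468 against BT20 the G2 and mitosis list had 1 gene higher and 9 lower of 20, and their part in the members' differences was not tested.

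**Figure D4:**
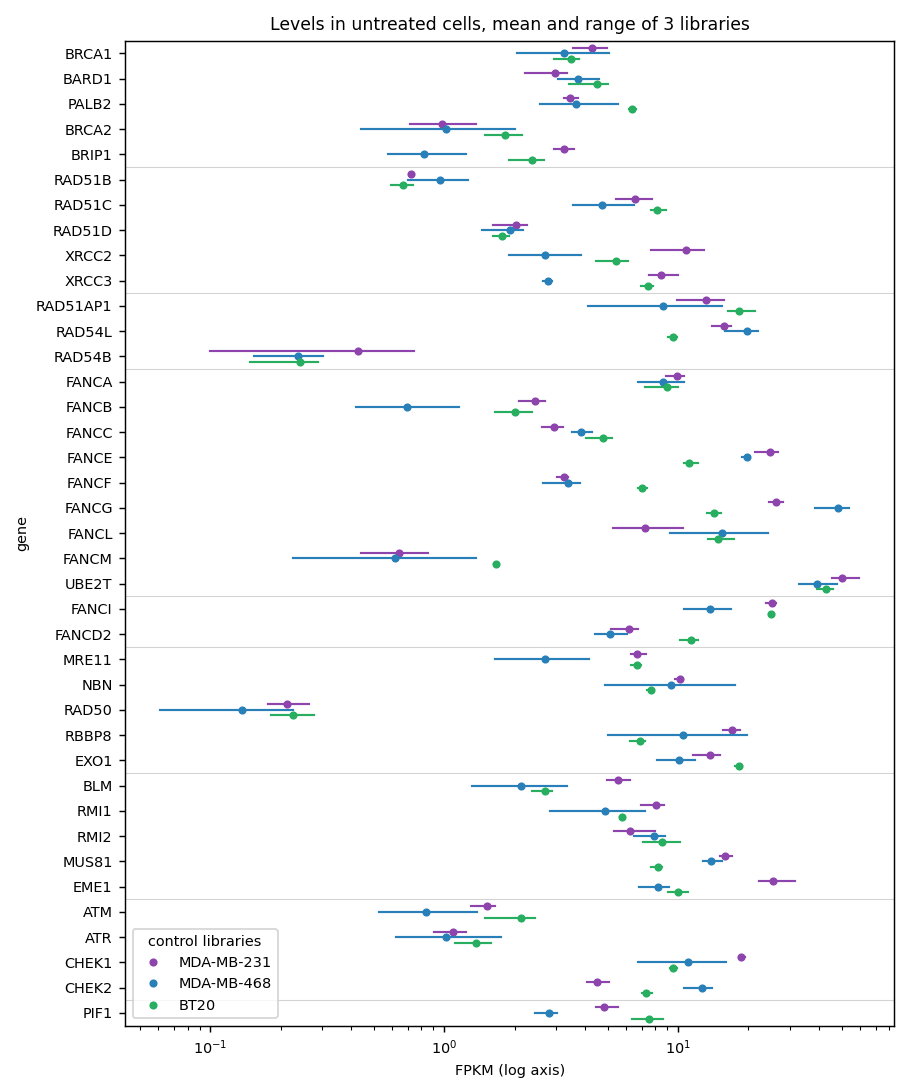
FPKM of the 39 members in untreated MDA-MB-231, MDA-MB-468 and BT20 cells on a log axis, as the mean (point) and range (line) of 3 libraries, with genes in order of role. FANCG lies highest in MDA-MB-468 and EME1 and XRCC2 in MDA-MB-231, and the MDA-MB-468 lines are the widest for many genes.

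Between untreated lines 9 members had no call. FANCA, BRCA1, BARD1, FANCC, UBE2T, RMI2, NBN, ATR and BRCA2 were called in none of the 3 comparisons, with log2 differences between -0.51 and 0.54 by limma, which does not show that their levels are equal. With the replicate block FANCC was called lower in MDA-MB-231 against BT20 and UBE2T higher in MDA-MB-231 against MDA-MB-468. Both calls were also made under median scaling. That of FANCC was made as well without further normalization, by limma-voom and without the filter. UBE2T had 22.4 to 65.0 FPKM over the 18 libraries and FANCG 4.18 to 55.5 FPKM, and their order depended on the line, with means of 48.3 FPKM for FANCG and 39.3 FPKM for UBE2T in untreated MDA-MB-468. BRCA2, FANCM, ATR and ATM stood near the filter, with medians of 1.06, 0.854, 1.13 and 1.57 FPKM.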

How the data were processed

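RNA of 18 libraries, 3 per line and treatment, was analysed. Per the labels and methods, adapters were trimmed with cutadapt 2.8, and the authors aligned reads to GRCh38.p13 with TopHat2 2.1.1, counted them per gene with HTSeq 0.11.3 and deposited FPKM from Ensembl gene lengths and cufflinks, neither filtered nor quantile-normalized. Symbols were matched for 60357 of 60676 genes. Whole reads were recovered from the steps of the deposited FPKM, and 99.9961% of values above 0 came out within 0.01 reads of a whole number. The denominators matched protein-coding reads. Limma-voom with trimmed-mean factors on these reads called 2772, 1421 and 267 genes with NAM, the first in BT20, the second in MDA-MB-468 and the third in MDA-MB-231.

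Genes that reached an FPKM of 1 in 3 or more libraries were taken as log2(FPKM + 1), with a pseudocount of 1, quantile-normalized and tested by limma 3.58.1 in R 4.3.3, two-sided, with Benjamini-Hochberg adjustment at 0.05. The plain fit of NAM against control was tested on simulated data with noise independent between libraries. The other fits, and deviations shared across many genes, were not simulated. Depth of 10864143 to 21755168 protein-coding reads sets the precision. Deviations of same-numbered NAM and control libraries correlated at 0.128 to 0.706 in MDA-MB-468, 0.616 to 0.74 in MDA-MB-231 and -0.0806 to 0.0998 in BT20. The numbers were taken as pairs, from the data alone, in MDA-MB-231 and MDA-MB-468. Only replicate 1 stood out as a pair. In MDA-MB-468 NAM replicate 3 correlated at 0.321 with control replicate 2, against 0.128 with control replicate 3. In MDA-MB-231 NAM replicate 3 correlated at 0.688 with control replicate 2, against 0.716 with control replicate 3. Same-numbered controls correlated at 0.429 to 0.635 between MDA-MB-231 and BT20, 0.153 to 0.297 between MDA-MB-468 and BT20 and -0.00409 to 0.364 for MDA-MB-468 with MDA-MB-231. All members are named. Full values are given for members called with NAM, plainly or with the block where libraries pair, and for the 5 called members with the largest difference between control groups that do not overlap, and of other lists up to 4 genes per direction with the largest called change. The members and lists were chosen with earlier results of these data known. Coordinates are those of GRCh38. Figures were drawn with matplotlib 3.10.9. Some genes of the lists are not reported here by name.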

Additional observations from a re-analysis of the deposited data

Results flagged for a closer look

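The change with NAM differed between lines for 3 members by the test of line and treatment in 1 limma fit of all 18 libraries. This was no larger a share of the members tested than the 9.36% of all 17784 genes tested. Under median scaling and by limma-voom only PIF1 was left. PIF1 had an adjusted p of 0.000263, FANCG of 0.0214 and XRCC3 of 0.0403. The changes of PIF1, FANCG and XRCC3 were -1.96, -1.25 and -0.58 in BT20. They were 0.19, -0.09 and 0.41 in MDA-MB-468. They were -0.93, -0.26 and -0.19 in MDA-MB-231. KLC1, on the opposite strand, shares 76.7% of the exon bases of XRCC3. The change of XRCC2 was negative in BT20, at -0.64, and positive in MDA-MB-468, at 0.56, and the limma test of that difference, 1.25, gave an adjusted p of 0.092 without and 0.0111 with the replicate block.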

How the results depend on the processing

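The count of members called with NAM in BT20, 13, ranged between 4 and 19 when 1 library was left out. It was 4 without the filter on low values and 5, of which 1 was higher, without replicate 1 of NAM and control, a setting chosen after seeing the data. In BT20 the replicate block gave 14 calls, including all 13. In MDA-MB-468, where 0 were called, leaving out 1 library gave 0 to 1 calls, the replicate block 8, no filter on low values 1 and leaving out replicate 1 of NAM and control 5. In MDA-MB-231, where 0 were called, each library left out gave 0, the replicate block 5, a pseudocount of 0.1 gave 1, no filter on low values 1, 1 fit of all 18 libraries 2 and leaving out replicate 1 of NAM and control 6. The interaction, with 3 members called, gave 1 under median scaling, 1 by limma-voom, 7 with the replicate block and 1 to 5 with 1 library left out. The cause of these shifts was not tested. The total counts between untreated lines stayed within 1.5 times under every alternative run, but some counts by direction did not. For MDA-MB-231 against BT20 the 5 lower members became 9 without further normalization, 8 by limma-voom, 3 with a pseudocount of 0.1 and 2 to 7 with 1 library left out, and for MDA-MB-468 against BT20 the 15 lower members became 9 to 18 with 1 library left out. The replicate block gave 20, 19 and 22 calls in place of 20, 18 and 18. With 1 library left out the totals were 14 to 24 for MDA-MB-468 against BT20, 12 to 22 for MDA-MB-231 against BT20 and 14 to 26 for MDA-MB-231 against MDA-MB-468. No member changed sign under any alternative run in a NAM comparison that called it, plainly or with the block where libraries pair. The same held for the 5 called members with the largest difference between control groups that do not overlap. Signs of uncalled members given with library values, such as FANCG in MDA-MB-468, were not checked. RAD50, RAD54B and RAD51B lay too low for a test.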
